A study of Mus musculus with 5 samples.

Results

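The 10 genes described here build and tune elastic fibres: Eln, Lox, Loxl1, Fbln5, Efemp2, Mfap4, Mfap5, Ltbp2, Ltbp4 and Mgp. They were chosen by name, and all 10 of them are among the 32285 genes of the count tables. Single-cell RNA was counted in the dissociated whole lungs of 5 mouse embryos at E18.5 after lysis of red cells, 1 library per embryo. Het1 and Het2 carry the genotype Zswim8+/- and KO1, KO2 and KO3 the genotype Zswim8-/-, so every embryo carries at least 1 mutant allele and the comparison has no wild-type embryo. The allele and the strain are not given in the sources used here. Zswim8 is a substrate receptor of a ubiquitin ligase that lowers some microRNAs once a trigger transcript binds them. Each library stands for 1 embryo, and shared litters are not stated.

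Elastic fibres let the lung stretch and recoil, and in late gestation they are laid down by fibroblasts, myofibroblasts and smooth muscle of vessels and airways. Secreted tropoelastin, the product of Eln, is collected on fibulins, deposited on a scaffold of fibrillin microfibrils and cross-linked by lysyl oxidases. Latent TGF-beta binding proteins and microfibril-associated proteins sit on the same scaffold, and several of them place the fibulins or hold growth factors there.

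RefSeq promoter sequences (GRCm38.p6) were on hand for 4 members, Fbln5, Efemp2, Ltbp2 and Ltbp4. The 3 below belong to members that were lower in at least 1 class of KO-labelled cells, so that the start of each gene can be read beside its values. Each is the 250 bases just before the RefSeq start that lies farthest upstream, 5′ to 3′ on the gene's strand, with the GC box GGGCGG in capitals on either strand (neighbouring boxes can overlap). The windows are chr12:101819120-101819369, chr12:84876492-84876741 and chr7:27337613-27337862, all on the minus strand.
Fbln5: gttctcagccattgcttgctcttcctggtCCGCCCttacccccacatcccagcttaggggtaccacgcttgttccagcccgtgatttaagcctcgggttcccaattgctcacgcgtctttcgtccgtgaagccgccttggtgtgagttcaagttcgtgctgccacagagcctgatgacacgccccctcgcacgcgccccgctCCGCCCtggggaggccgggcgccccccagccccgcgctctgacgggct
Ltbp2: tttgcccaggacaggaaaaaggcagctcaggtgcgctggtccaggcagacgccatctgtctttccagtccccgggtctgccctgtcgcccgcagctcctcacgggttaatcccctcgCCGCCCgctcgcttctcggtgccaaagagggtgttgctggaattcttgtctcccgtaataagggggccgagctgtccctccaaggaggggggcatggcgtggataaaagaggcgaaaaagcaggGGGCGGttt
Ltbp4: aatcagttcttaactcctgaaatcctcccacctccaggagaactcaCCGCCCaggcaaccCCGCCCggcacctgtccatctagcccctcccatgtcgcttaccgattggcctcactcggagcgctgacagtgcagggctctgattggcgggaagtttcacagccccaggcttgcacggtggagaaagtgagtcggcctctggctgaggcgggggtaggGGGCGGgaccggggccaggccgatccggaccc
These windows held 2, 2 and 3 GC boxes and had 65.2%, 61.6% and 64.4% G and C, against a mean of 53.2% over 32851 RefSeq promoters cut the same way. A GC box lay in 32.7% of all those promoters. Other RefSeq starts of these genes differed. A Fbln5 window farther downstream, chr12:101818485-101818734, held 0 GC boxes and 49.6% G and C. Other Ltbp4 windows held 5 and 7 GC boxes, each with 79.2% G and C. On either strand, the letters TATAAA (12.4% of all promoters), TGACTCA (4.46%) and GGAATG (12.6%) did not occur in the 3 windows.

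Libraries held 56608582 to 93708304 unique molecular identifiers (UMIs, each 1 captured transcript end) over all barcodes, and 3051 to 4634 cells per library were kept. Pairs of libraries shared 0 to 7 barcodes. The median kept mesenchymal cell had 9895.5 to 12173 UMIs. Zswim8 itself (ENSMUSG00000021819, GRCm38 chromosome 14, 20707552 to 20723619, plus strand) was at 37.3 (Het1), 39.1 (Het2), 38.5 (KO1), 38.6 (KO2) and 40.3 (KO3) CPM over all kept cells, where CPM are UMIs scaled to a common total per library (log2 fold change 0.04, standard error 0.06, edgeR adjusted p = 0.734). The KO-labelled values lay within or above the range of the Het ones. A UMI marks only the 3′ end of a transcript and the allele is not stated, so the labels cannot be checked by it, and "lower" or "higher" below means in the KO-labelled libraries against Het. By their Y-linked and Xist UMIs, KO1 and KO2 came from female embryos and the other 3 from males, so sex and genotype are partly confounded. No Het embryo was female, so with sex as a covariate the genotype term rests on KO3 against Het1 and Het2. A call lost in that fit cannot tell an effect of sex from the smaller comparison.

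In every library, mesenchymal cells held most UMIs of 8 members. The median share over the 5 libraries was 96.2% for Mfap5, 94.9% for Loxl1, 91.3% for Lox, 91.2% for Mfap4, 89.5% for Mgp, 84.5% for Eln, 75.7% for Ltbp2 and 67.0% for Ltbp4. Efemp2 was spread more widely, with a median of 51.0% in mesenchymal and 31.3% in epithelial cells. Fbln5 had no majority in any lineage: 31.4% of its UMIs lay in mesenchymal, 28.0% in epithelial and 35.8% in endothelial cells. Immune cells held at most 6.9% of any member's UMIs in any library, a maximum reached by Efemp2. Such shares depend on how many cells of each lineage were kept, and mesenchymal cells numbered 580 (Het1), 592 (Het2), 872 (KO1), 590 (KO2) and 856 (KO3).

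**Figure D1:**
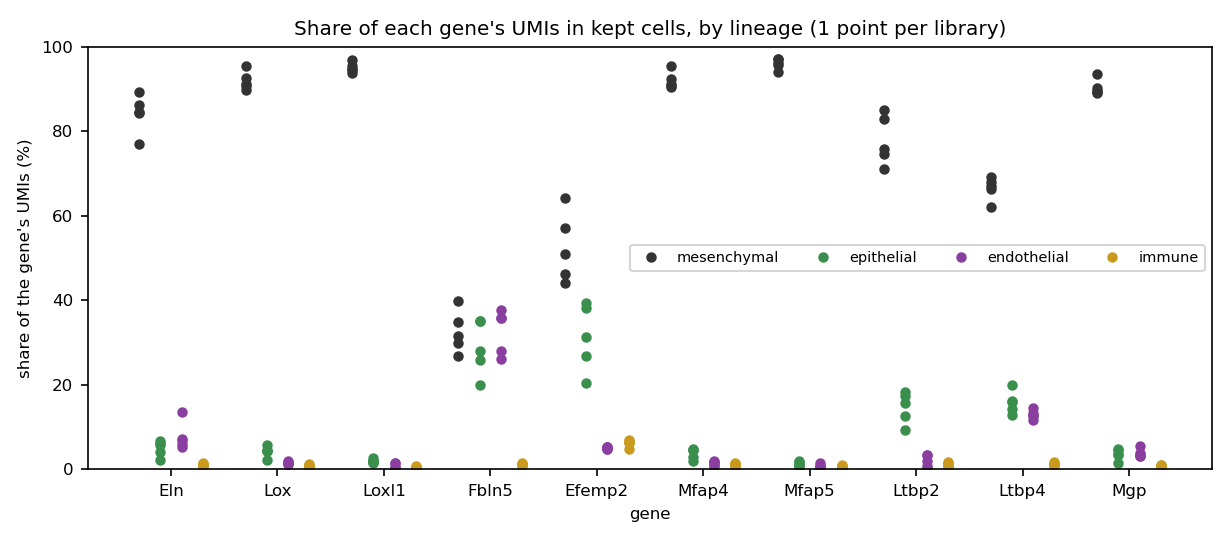
The share of each gene's UMIs (%, y axis) that lay in mesenchymal, epithelial, endothelial and immune cells, with 1 point per library and the genes on the x axis. Fbln5 is the member whose mesenchymal, epithelial and endothelial points lie side by side, with medians of 31.4%, 28.0% and 35.8%.

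The level in red-cell barcodes, which hold free RNA, is set beside each class as a mark. It is not a floor, since some classes lay below it, and how much free RNA each class held was not measured. In red-cell barcodes, which hold over 50% haemoglobin UMIs and under 500 genes, Eln was at 131 to 287 CPM of the non-haemoglobin UMIs, Mgp at 150.0 to 237 CPM, Mfap4 at 61.2 to 124 CPM and Fbln5 at 31.2 to 48.7 CPM. Epithelial cells had Eln at 84.1 to 189 CPM and Mgp at 59.9 to 137 CPM, below the red-cell barcodes of the same library in all 5 libraries, so neither is read as expression there. Immune cells were below that level for all 10 members in all 5 libraries. Endothelial cells were above it in all 5 libraries for Eln (306 to 2146 CPM), Fbln5 (329 to 489 CPM), Ltbp4 (161 to 277 CPM), Efemp2 and Mgp. Epithelial Fbln5 (72.2 to 138 CPM), Efemp2, Ltbp2 and Ltbp4 were likewise above it in all 5.

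The mesenchymal cells were clustered again without the 10 members and without a list of other fibre genes, so that neither entered this second clustering. The first clustering, which picked the mesenchymal cells, did not leave them out. Of the list, Dcn also served as a marker of adventitial fibroblasts and Bgn of the mesenchymal lineage. Markers named 7 classes: smooth muscle-like, myofibroblast-like, alveolar fibroblast-like, adventitial fibroblast-like, mesothelial-like, pericyte-like and cycling mesenchymal-like. Another 3 clusters stayed unnamed and are called by number. Cluster 0 was led by Cldn11, Vegfd and Fgf10, cluster 8 by Rgs5, Ccl11 and Heyl, and cluster 12 by Lgr5, Col7a1 and Wif1. A cluster of 100 cells with endothelial markers was left out of the classes.

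Elastin itself (ENSMUSG00000029675, GRCm38 chromosome 5, 134702593 to 134747323, minus strand) had its highest means in 2 named classes, smooth muscle-like and myofibroblast-like cells, and in clusters 12 and 8. Its mean over the 5 libraries, both genotypes together, was 13007 CPM ± 5689 (SD, n = 5) in cluster 12, 8902 CPM ± 2390.3 (SD, n = 5) in smooth muscle-like cells, 8582 CPM ± 1807 (SD, n = 5) in cluster 8 and 5888 CPM ± 2143 (SD, n = 5) in myofibroblast-like cells. The ranges of these 4 classes overlapped, and their order did not hold in every library. Cycling mesenchymal-like cells followed with 4419 CPM ± 1225 (SD, n = 5), above every library of the next class. Alveolar fibroblast-like, mesothelial-like, cluster 0 and adventitial fibroblast-like cells had means from 1449 to 1826 CPM with overlapping ranges. Pericyte-like cells were lowest at 492 CPM ± 337 (SD, n = 5), a range apart from that of the adventitial fibroblast-like cells.

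The cross-linking enzymes were placed differently from elastin and from each other. Lox, a lysyl oxidase (ENSMUSG00000024529, GRCm38 chromosome 18, 52516067 to 52529867, minus strand), was at 2524 CPM ± 474 (SD, n = 5) in cluster 12, 1345 CPM ± 61.0 (SD, n = 5) in cluster 0 and 971 CPM ± 76.5 (SD, n = 5) in adventitial fibroblast-like cells, and these 3 ranges did not overlap. In smooth muscle-like cells, a class high in elastin, Lox was at 131 CPM ± 33.8 (SD, n = 5), and in pericyte-like cells at 19.0 CPM ± 16.0 (SD, n = 5). Loxl1 (ENSMUSG00000032334, GRCm38 chromosome 9, 58287738 to 58313186, minus strand), the family member tied to elastin upkeep, was highest in cluster 8 at 495 CPM ± 55.8 (SD, n = 5), apart from adventitial fibroblast-like cells at 349 CPM ± 71.1 (SD, n = 5) in all 5 libraries. Smooth muscle-like cells had Loxl1 at 326 CPM ± 70.0 (SD, n = 5), with a range that overlapped the adventitial one. Myofibroblast-like cells had 22.4 CPM ± 4.71 (SD, n = 5), against a red-cell level of 6.71 to 10.0 CPM. Each enzyme was thus low in a class that was high for elastin: Lox in smooth muscle-like cells and Loxl1 in myofibroblast-like cells.

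The fibulins guide tropoelastin onto microfibrils. Fbln5 (ENSMUSG00000021186, GRCm38 chromosome 12, 101746565 to 101819055, minus strand) was highest in smooth muscle-like cells at 508 CPM ± 107 (SD, n = 5), followed by cluster 8 at 379 CPM ± 106 (SD, n = 5), whose range overlapped it. Myofibroblast-like cells had 9.93 CPM ± 8.08 (SD, n = 5), below the red-cell barcodes in all 5 libraries, so Fbln5 is not read as expression there. Efemp2, also called fibulin-4 (ENSMUSG00000024909, GRCm38 chromosome 19, 5473954 to 5482517, plus strand), had the smallest ratio of highest to lowest class mean among the members, from 69.3 CPM ± 8.69 (SD, n = 5) in smooth muscle-like to 165 CPM ± 14.6 (SD, n = 5) in adventitial fibroblast-like cells. No pair of neighbouring classes in that order had ranges apart.

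Of the microfibril-associated glycoproteins, Mfap4 (ENSMUSG00000042436, GRCm38 chromosome 11, 61485431 to 61488900, plus strand), which binds elastin and fibrillin, was at 4805 CPM ± 480.2 (SD, n = 5) in alveolar fibroblast-like cells, apart from cluster 8 at 2467 CPM ± 183 (SD, n = 5) in all 5 libraries. Mesothelial-like cells had Mfap4 at 123 CPM ± 50.7 (SD, n = 5). Mfap5 (ENSMUSG00000030116, GRCm38 chromosome 6, 122505845 to 122529290, plus strand), another microfibril glycoprotein, marked adventitial fibroblast-like cells at 1075 CPM ± 90.7 (SD, n = 5), apart from cluster 12 at 324 CPM ± 203 (SD, n = 5). In smooth muscle-like and pericyte-like cells Mfap5 was at 17.9 CPM ± 9.3 (SD, n = 5) and 2.31 CPM ± 4.04 (SD, n = 5). These genes were left out of the second clustering but not of the first, which picked the mesenchymal cells.

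The latent TGF-beta binding proteins split between classes. Ltbp2 (ENSMUSG00000002020, GRCm38 chromosome 12, 84783212 to 84876532, minus strand), which does not bind latent TGF-beta and competes for fibrillin, was at 429 CPM ± 165 (SD, n = 5) in cluster 12 and 335 CPM ± 98.8 (SD, n = 5) in myofibroblast-like cells, with overlapping ranges. It was at 24.5 CPM ± 8.97 (SD, n = 5) in alveolar fibroblast-like cells and 20.2 CPM ± 12.3 (SD, n = 5) in cluster 0. Ltbp4 (ENSMUSG00000040488, GRCm38 chromosome 7, 27305136 to 27337692, minus strand), which carries Fbln5 to microfibrils, was more even, from 194 CPM ± 63.1 (SD, n = 5) in pericyte-like cells to 790.2 CPM ± 114 (SD, n = 5) in cluster 12, with no neighbouring ranges apart. Mgp (ENSMUSG00000030218, GRCm38 chromosome 6, 136872435 to 136875823, minus strand), an inhibitor of vessel and cartilage calcification, was at 15021 CPM ± 3655 (SD, n = 5) in cluster 12, apart from cluster 8 at 8382 CPM ± 2101 (SD, n = 5). Pericyte-like cells had Mgp at 165 CPM ± 135 (SD, n = 5), above its red-cell level in 2 of 5 libraries.

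**Figure D2:**
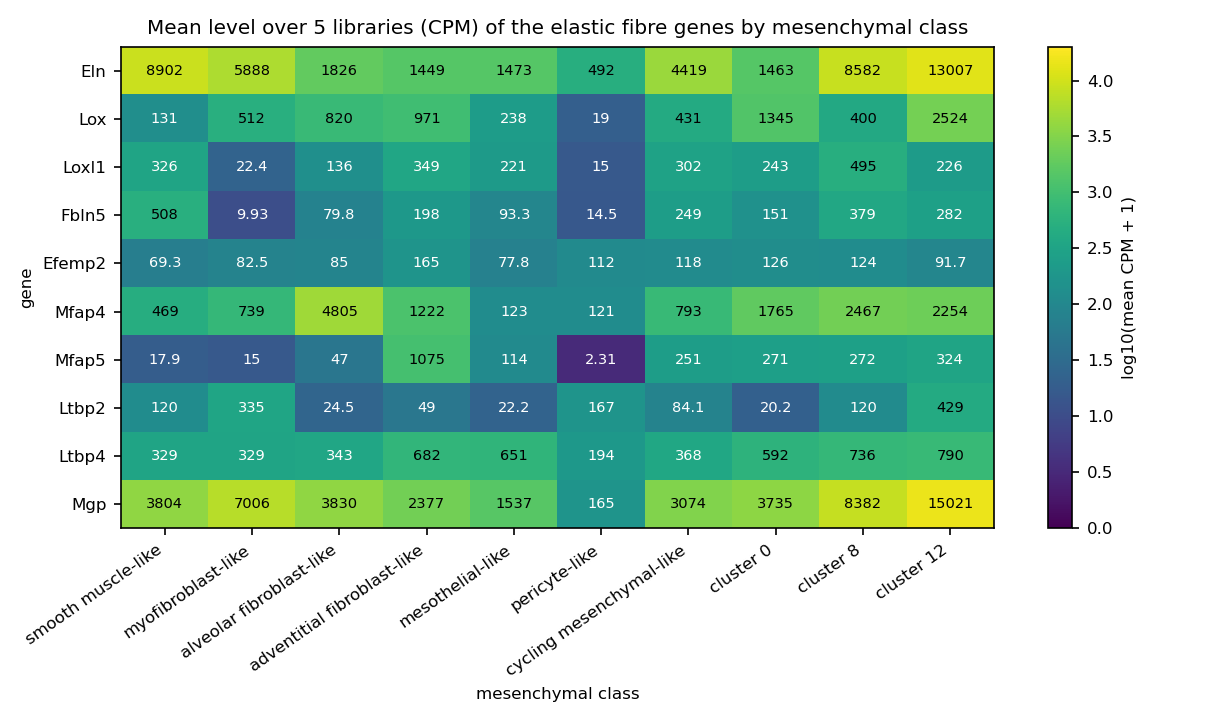
Mean level over the 5 libraries (CPM, printed in each cell, coloured on a log10 scale of CPM + 1) of the 10 genes (rows) in 10 mesenchymal classes (columns). Cluster 12 has the highest mean of Eln (13007 CPM) and of Mgp (15021 CPM), and pericyte-like cells are lowest for both.

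Across the 50 values of a gene (10 classes in 5 libraries, log2 of CPM + 1), Eln was most like Mgp among the members, with a Pearson r of 0.83. Fbln5 was most like Loxl1 (0.82), and Lox most like Mfap4 (0.81). Ltbp2 and Efemp2 had no member above 0.51. Outside the list, among the 4615 genes compared, whose mean reached 50 CPM in some class, the genes most like Eln were P4ha3, a prolyl hydroxylase subunit that modifies collagen (0.76), Reep3 (0.75) and Tnc, the matrix protein tenascin C (0.73). The most alike genes for the others were Fgfr1 for Lox (0.90), Gxylt2 for Loxl1 (0.87), 2310022B05Rik for Fbln5 (0.86), S100a13 for Efemp2 (0.75), Islr for Mfap4 (0.89), Serpinf1 for Mfap5 (0.94), Arhgef7 for Ltbp2 (0.73), Ptgfrn for Ltbp4 (0.85) and Cacna1g for Mgp (0.86). The points share cells, libraries and depth, so these r values only describe the pattern.

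Genotypes were compared first in the sum of all mesenchymal cells, the compartment that held most UMIs of 8 members in every library. Values joined by "against" are Het1 and Het2, then KO1, KO2 and KO3. Eln, Ltbp2, Mgp, Loxl1, Fbln5 and Lox had a level in each of the 3 KO-labelled libraries below both Het libraries. No member passed an adjusted p of 0.05 in edgeR's quasi-likelihood test, whose background was 0.0652% of 13795 genes. At an unadjusted p under 0.05 there were 5 members (12.8% of all genes), and DESeq2 called 4 (0.971% of all genes). In all, 9 of 10 members had a negative log2 fold change, with a median of -0.36, against a median of -0.0032 over all genes tested. Groups that did not overlap with KO below were found for 6 of 10 members and for 15.7% of all genes.

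Elastin was at 6552 (Het1), 4889 (Het2), 2697 (KO1), 2869 (KO2) and 3255 (KO3) CPM in this sum. Both Het libraries lay above all KO-labelled ones, a 1.95-fold difference of means from 5721 ± 1176 CPM (SD, n = 2) to 2940.4 ± 285 CPM (SD, n = 3), which missed the threshold (log2 fold change -0.96, standard error 0.15, edgeR adjusted p = 0.0988). Ltbp2 was at 155 and 133 against 83.9, 81.7 and 70.5 CPM, without overlap, and lay nearest to the threshold (log2 fold change -0.87, standard error 0.11, edgeR adjusted p = 0.052). Mgp was at 5805 and 4798 against 2981, 3044 and 3044 CPM, also without overlap, and the 3 KO-labelled libraries were close together (log2 fold change -0.81, standard error 0.11, edgeR adjusted p = 0.0691). Loxl1 was at 318 and 289.5 against 214, 209 and 221 CPM (log2 fold change -0.50, standard error 0.08, edgeR adjusted p = 0.1). Efemp2 overlapped, at 109 and 110.4 against 93.6, 110.0 and 107 CPM (log2 fold change -0.09, standard error 0.09, edgeR adjusted p = 0.731), as did Mfap4 at 1409.8 and 1016 against 1245, 1314 and 1252 CPM and Mfap5 at 288 and 337 against 339.8, 213 and 348 CPM.

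Leaving out mixed cells, those in which 3 or more markers of another lineage had a UMI, made 5 members pass: Eln, Fbln5, Loxl1, Ltbp2 and Mgp. Over all genes 140 of 11814 passed with these cells left out, against 9 of 13795 with them kept. The fit with sex as a covariate rests on KO3 against Het1 and Het2, as said above. With the embryo's sex as a covariate no member passed, and the edgeR adjusted p of Eln was 0.851. Over the 15 alternatives the adjusted p of Eln ran from 1.89e-07 to 0.851, and its log2 fold change from -1.23 to -0.73.

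The mix of classes in the sum also differed. Cluster 12, the class highest for Eln and Mgp, made up 6.38% (Het1), 7.60% (Het2), 1.61% (KO1), 2.54% (KO2) and 3.04% (KO3) of the mesenchymal cells. The share of myofibroblast-like cells went from 18.9% ± 0.52 (SD, n = 2) to 12.1% ± 1.27 (SD, n = 3), that of smooth muscle-like cells from 16.8% ± 4.10 to 12.7% ± 0.42, and that of alveolar fibroblast-like cells from 8.64% ± 2.42 to 15.8% ± 2.12. The exact two-sided permutation test over libraries gave p = 0.1 for each of these 4 classes, the smallest it can give with 2 against 3, and 0.25 after adjustment over 10 classes. Without cluster 12 the log2 fold change of Eln in the sum was -0.79, that of Mgp -0.64 and that of Ltbp2 -0.64. With the 5 named and tested classes given equal weight, the log2 ratio of means was -0.73 for Eln, -0.64 for Mgp and -0.62 for Ltbp2. In these sums, fewer cells of a class and less RNA per cell cannot be told apart.

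**Figure D3:**
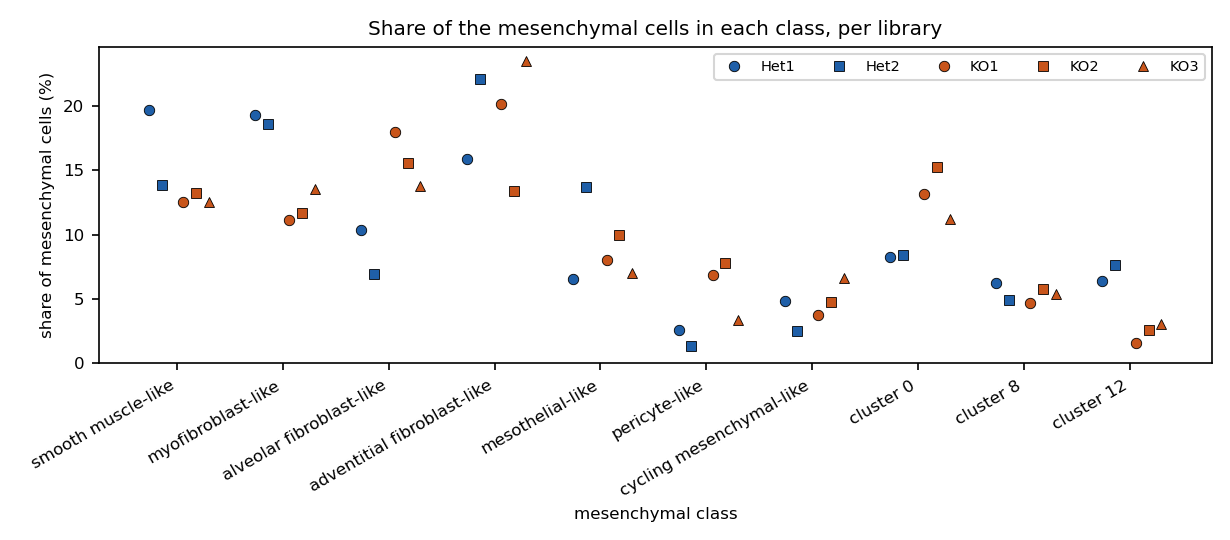
Share of the mesenchymal cells of a library (%, y axis) in each of 10 classes (x axis), with 1 point per library, Het in blue and KO-labelled in orange. In cluster 12 the Het points are at 6.38% and 7.60% and the KO-labelled ones between 1.61% and 3.04%.

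Within classes, members were lower in KO-labelled alveolar fibroblast-like cells, cluster 0 and myofibroblast-like cells. Alveolar fibroblast-like cells had 5 of 10 members called, all lower: Fbln5, Eln, Mgp, Loxl1 and Ltbp4. The background there was 2.06% of 8103 genes, or 1.54% in the lower direction. Cluster 0 had 3 of 10 called lower (Eln, Fbln5 and Loxl1), against 0.551% of 7981 genes, or 0.413% in the lower direction. Myofibroblast-like cells had 3 of 9 called lower (Mgp, Ltbp2 and Eln), against 1.45% of 8318 genes, or 1.14% in the lower direction. No member was called higher in any mesenchymal class tested. DESeq2 called Fbln5 and Mgp in alveolar fibroblast-like cells, Fbln5, Mfap4 and Mgp in cluster 0, and Ltbp2 and Mgp in myofibroblast-like cells. It called Eln in none of these classes. Of all genes tested there it called 1%, 0.351% and 0.709% in the same order.

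Each of the other classes tested had 0 members called by edgeR. Smooth muscle-like cells had 10 of 10 members with a negative log2 fold change and a median of -0.39, with 5 at an unadjusted p under 0.05 and 2 called by DESeq2. Of all 9460 genes there, 0.0951% passed in edgeR, 8.47% had an unadjusted p under 0.05 and 0.18% passed in DESeq2. Adventitial fibroblast-like cells had 9 of 10 negative and a median of -0.27, with 3 at an unadjusted p under 0.05 and 3 called by DESeq2, where the shares of 9994 genes were 0.0901%, 7.71% and 0.26% in the same order. Mesothelial-like cells had 7 of 10 negative and a median of -0.05, with 3 at an unadjusted p under 0.05 and 1 called by DESeq2 (0%, 7.49% and 0.109% of 10982 genes). In cluster 8 the counts were 8 of 10 negative, a median of -0.33, 4 at an unadjusted p under 0.05 and 0 by DESeq2 (0.147%, 10.9% and 0.541% of 6102 genes). Medians in alveolar fibroblast-like cells, cluster 0 and myofibroblast-like cells were -0.63, -0.59 and -0.45. Over all genes tested, the median lay between -0.0021 and 0.014 in each of these 7 classes. In simulated data 200 genes were changed by 1 on the log2 scale. The fit recovered 53% of them in smooth muscle-like, 53% in adventitial fibroblast-like and 20% in mesothelial-like cells and 44.5% in cluster 8. In the classes with calls it recovered 38.5% in alveolar fibroblast-like cells, 37% in cluster 0 and 55.5% in myofibroblast-like cells.

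**Figure D4:**
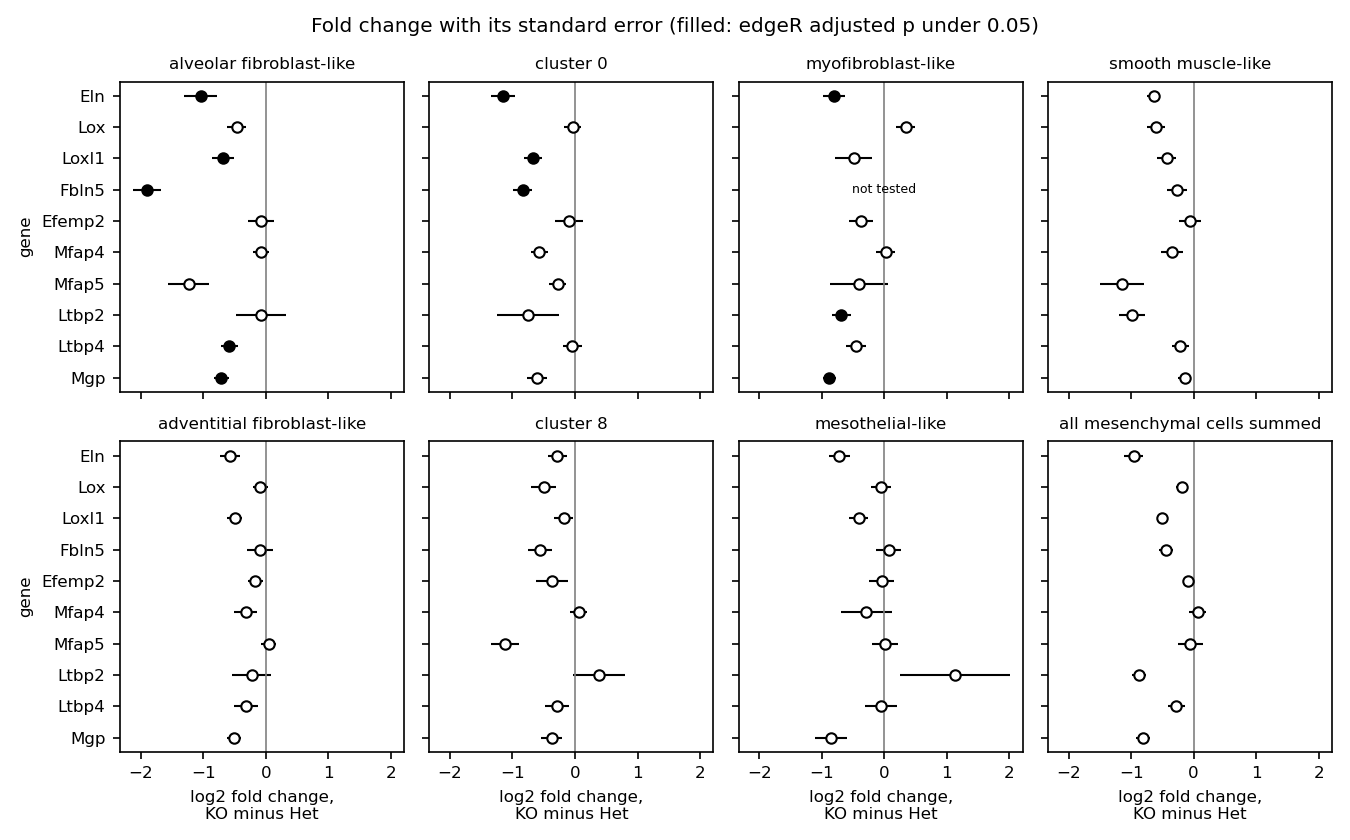
Log2 fold change, KO minus Het (x axis), with its standard error as a bar, for the 10 genes (rows) in the 7 classes tested and in the mesenchymal sum (panels); filled points passed an edgeR adjusted p of 0.05. All filled points lie left of 0, and the leftmost is Fbln5 in alveolar fibroblast-like cells at -1.90.

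Fbln5 in alveolar fibroblast-like cells was the member with the largest called change. It was at 128 (Het1), 159 (Het2), 32.6 (KO1), 30.7 (KO2) and 49.2 (KO3) CPM, from 67, 59, 42, 29 and 62 UMIs in that order. Both Het libraries lay above all KO-labelled ones, and the level went from 143 ± 21.8 CPM (SD, n = 2) to 37.5 ± 10.2 CPM (SD, n = 3), 3.82-fold lower (log2 fold change -1.90, standard error 0.22, edgeR adjusted p = 7.83e-05). The red-cell barcodes had Fbln5 at 48.7 and 46.4 against 34.0, 31.2 and 42.9 CPM. The KO-labelled level in alveolar fibroblast-like cells was near that of the red-cell barcodes and was above it only in KO3. How much of it was free RNA was not tested. The call held in 18 of 18 alternatives, with adjusted p from 5.84e-14 to 0.00692.

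Elsewhere Fbln5 passed in cluster 0 and in no other class. In cluster 0 it was at 195 and 213 against 105, 133 and 107 CPM without overlap (log2 fold change -0.84, standard error 0.15, edgeR adjusted p = 0.0145). In smooth muscle-like cells, where it was highest, the groups overlapped at 437 and 695 against 479.6, 486 and 442 CPM (log2 fold change -0.27, standard error 0.16, edgeR adjusted p = 0.712). In adventitial fibroblast-like cells it was at 206 and 203 against 127, 224 and 230.2 CPM (log2 fold change -0.09, standard error 0.21, edgeR adjusted p = 0.959), again with overlap, and in cluster 8 at 534 and 404 against 249.7, 319 and 388 CPM (log2 fold change -0.56, standard error 0.19, edgeR adjusted p = 0.259). The test of whether the change in alveolar fibroblast-like cells differed from the mean of the other 4 named classes gave a difference of -1.46 (log2, standard error 0.33) with an edgeR adjusted p of 0.0936, which missed the threshold. That adjusted p ran from 1.22e-05 to 0.440 over its alternatives.

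Eln was called in 3 classes. In alveolar fibroblast-like cells it was at 2610.3 (Het1), 2674 (Het2), 1877 (KO1), 601 (KO2) and 1366 (KO3) CPM. No KO-labelled library reached a Het one, but KO2 was far below KO1 (log2 fold change -1.04, standard error 0.26, edgeR adjusted p = 0.0409). In cluster 0 it was at 2569 and 1799 against 1311, 850.2 and 786 CPM, and again the groups did not overlap (log2 fold change -1.15, standard error 0.19, edgeR adjusted p = 0.00776). In myofibroblast-like cells it was at 7538 (Het1), 8293 (Het2), 5442 (KO1), 2827 (KO2) and 5338 (KO3) CPM, with KO2 lowest (log2 fold change -0.80, standard error 0.18, edgeR adjusted p = 0.0288). Without KO2 the log2 fold change in myofibroblast-like cells was -0.56 and missed the threshold, with an edgeR adjusted p of 0.0756. Over all alternatives that adjusted p ran from 3.71e-13 to 0.403.

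In the class with most elastin among the named ones, the smooth muscle-like cells, Eln was at 11673 and 11008 against 6065, 7328 and 8435 CPM without overlap and missed the threshold (log2 fold change -0.64, standard error 0.11, edgeR adjusted p = 0.0606). In adventitial fibroblast-like and mesothelial-like cells it was at 2099 and 1508 against 1046, 1161 and 1433 CPM and 2097 and 1758 against 1082, 1265 and 1166 CPM, without overlap in either class and with adjusted p of 0.32 and 0.491. Cluster 8 was the 1 class tested in which the Eln groups overlapped, at 11366 and 7798.1 against 6723, 9298 and 7726 CPM. Eln thus had KO below Het without overlap in 6 of 7 classes tested, where 12.6% of all genes tested did so in adventitial fibroblast-like cells, 16.3% in alveolar fibroblast-like cells, 13.4% in cluster 0, 12.9% in cluster 8, 12.1% in mesothelial-like, 13.7% in myofibroblast-like and 12.8% in smooth muscle-like cells. In cluster 12, which had too few cells to test, Eln was at 17132 and 19947 against 6064, 8997 and 12895 CPM, without overlap.

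Loxl1 was called in 2 of the 3 classes in which Eln was. In alveolar fibroblast-like cells it was at 191 and 161 against 128, 99.6 and 102 CPM (log2 fold change -0.68, standard error 0.17, edgeR adjusted p = 0.0409), and in cluster 0 at 284 and 340.1 against 211, 210.5 and 169 CPM (log2 fold change -0.67, standard error 0.15, edgeR adjusted p = 0.0491). The groups did not overlap in either. Loxl1 had KO below Het without overlap in 6 of 7 classes, but only these 2 passed. Lox passed in no class, with log2 fold changes from -0.60 in smooth muscle-like to 0.34 in myofibroblast-like cells. In cluster 0, where Lox was at 1388 and 1346 against 1421, 1295 and 1276 CPM, the groups overlapped.

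Mgp was called in 2 classes. In myofibroblast-like cells it was at 10353 (Het1), 8922 (Het2), 5109 (KO1), 4803 (KO2) and 5845 (KO3) CPM, and the level went from 9637 ± 1012 CPM (SD, n = 2) to 5252 ± 536 CPM (SD, n = 3), 1.83-fold lower without overlap (log2 fold change -0.88, standard error 0.11, edgeR adjusted p = 0.000367). This call held in 17 of 18 alternatives; with a filter of at least 1 CPM in every library of a group the adjusted p was 0.282, and over all alternatives it ran from 2.37e-13 to 0.282. With that filter no member passed in these cells, and with no low-count filter Mgp alone did. In alveolar fibroblast-like cells Mgp was at 5144 and 4833 against 3202, 2705 and 3266 CPM, also without overlap (log2 fold change -0.71, standard error 0.12, edgeR adjusted p = 0.00293). In smooth muscle-like cells the groups overlapped at 4449 and 3611 against 3487, 4059 and 3412 CPM (log2 fold change -0.14, standard error 0.11, edgeR adjusted p = 0.783).

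**Figure D5:**
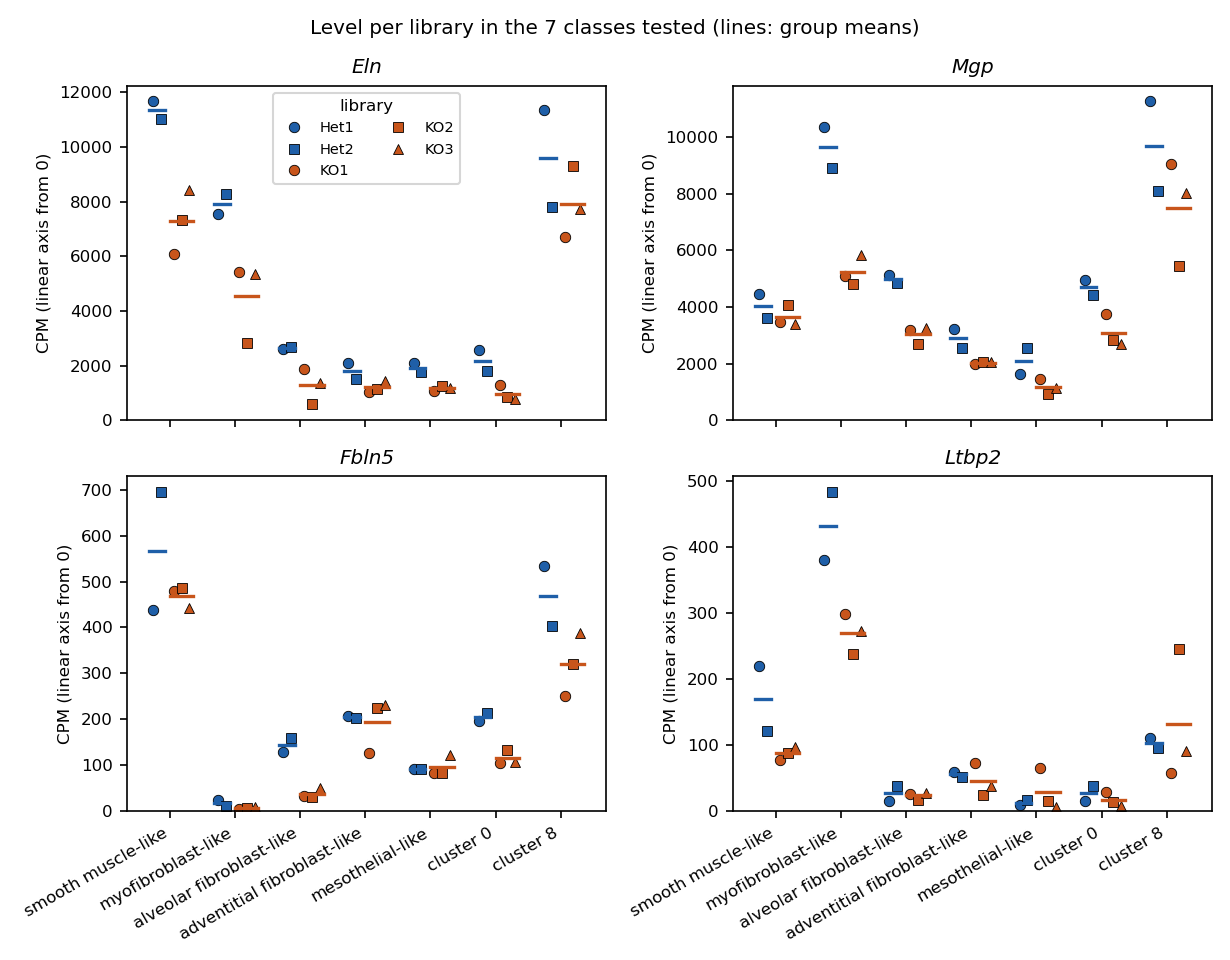
Level (CPM, y axis from 0) of Eln, Mgp, Fbln5 and Ltbp2 in each library for the 7 mesenchymal classes tested (x axis), with Het in blue, KO-labelled in orange and lines at the group means. Mgp in myofibroblast-like cells is at 10353 and 8922 CPM in Het and between 4803 and 5845 CPM in KO-labelled libraries.

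The latent TGF-beta binding proteins each passed in 1 mesenchymal class. Ltbp2 in myofibroblast-like cells, the named class where it was highest, was at 381 (Het1), 484 (Het2), 298 (KO1), 237 (KO2) and 273 (KO3) CPM and went from 433 ± 72.3 CPM (SD, n = 2) to 269 ± 30.6 CPM (SD, n = 3) without overlap (log2 fold change -0.69, standard error 0.15, edgeR adjusted p = 0.0279). In smooth muscle-like cells Ltbp2 was at 219 and 120.4 against 77.4, 88.4 and 96.0 CPM and missed the threshold (log2 fold change -0.99, standard error 0.21, edgeR adjusted p = 0.134). Ltbp2 had a negative log2 fold change in 5 of 7 classes; it was 0.39 in cluster 8 and 1.13 in mesothelial-like cells, and neither passed. Ltbp4 in alveolar fibroblast-like cells was at 397 (Het1), 462 (Het2), 288 (KO1), 278 (KO2) and 293 (KO3) CPM, without overlap (log2 fold change -0.58, standard error 0.14, edgeR adjusted p = 0.026). In the other 6 classes tested its log2 fold change ran from -0.45 to -0.04, and none passed.

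Efemp2, Mfap4, Mfap5 and Lox passed in no class of the mesenchyme in the edgeR test used here. Efemp2 was negative in 7 of 7 classes, from -0.38 to -0.04. Mfap4 in its own peak class, the alveolar fibroblast-like cells, was at 5319.7 and 4594 against 5226, 4148 and 4738 CPM with overlapping groups (log2 fold change -0.08, standard error 0.13, edgeR adjusted p = 0.879), beside the called members of the same cells. Mfap5 in its peak class, the adventitial fibroblast-like cells, was at 1093 and 1015 against 1210.1, 972 and 1085 CPM (log2 fold change 0.05, standard error 0.12, edgeR adjusted p = 0.961). In alveolar fibroblast-like cells Mfap5 was at 55.3 and 91.4 against 44.2, 17.0 and 27.0 CPM without overlap and just missed the threshold (log2 fold change -1.23, standard error 0.33, edgeR adjusted p = 0.0573). It passed there in 6 alternatives, among them scaling by library size alone.

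Several measures moved with the alveolar fibroblast-like result. That class held 2 clusters, a larger one and the shallower cluster 13, led by haemoglobin genes. The larger one made up 65.0% (Het1), 61.0% (Het2), 75.8% (KO1), 84.8% (KO2) and 82.2% (KO3) of the class. The summed level of 8 erythroid markers in the class was 32285 and 68945 CPM in the Het libraries and 8961, 13472 and 14632 CPM in the KO-labelled ones, and the part of these differences in the result was not tested. The summed level of 12 epithelial markers was 568 and 276 against 945, 483 and 557 CPM, that of 10 endothelial markers 173 and 117 against 83.4, 93.4 and 93.6 CPM, and that of 8 immune markers 110.4 and 34.5 against 26.1, 41.4 and 57.3 CPM. With the larger cluster alone Fbln5 still passed, with a log2 fold change of -1.93 and an edgeR adjusted p of 0.00692, and the other 4 members did not, with Eln at -1.08 (edgeR adjusted p = 0.187, and 5.80e-12 to 0.636 over its alternatives), Mgp at -0.61, Loxl1 at -0.48 and Ltbp4 at -0.19. Fbln5 was likewise the only member called in these cells at clustering resolutions 0.5 and 2, with the members kept among the clustered genes, with the sex covariate and without Het1. Without Het2 or without KO3 the calls were Fbln5 and Mgp, and without KO2 they were Fbln5, Eln and Mgp.

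For myofibroblast-like cells, the larger cluster alone kept the same 3 calls, Eln, Mgp and Ltbp2, and so did resolutions 0.5 and 2. Without Het2 or without KO2 only Mgp passed, and without KO3 Eln and Mgp did. The sex covariate left Mgp, with a log2 fold change of -0.72 and an edgeR adjusted p of 0.0158. Erythroid markers in this class were at 42374 and 13445 CPM in Het and 18987, 16720.0 and 16990.3 CPM in KO-labelled libraries, so the groups overlapped. In cluster 0 they also overlapped, at 19528 and 16895 against 12939, 7009 and 19985 CPM, and the sex covariate left Eln, at -1.47 with an edgeR adjusted p of 0.0162 (7.72e-22 to 0.199 over its alternatives). Without Het1, or with mixed cells left out, no member passed in cluster 0, without Het2 Eln did, without KO2 Fbln5 did, and without KO3 Eln and Fbln5 did.

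The test of genotype by class called no member's change different between named classes. Of the 50 terms for the members (10 members in 5 classes), 0 passed an edgeR adjusted p of 0.05 and 11 had an unadjusted p under 0.05, where the background was 0%, 0.115%, 0.195%, 0.00886% and 0.00886% of 11293 genes in adventitial fibroblast-like, alveolar fibroblast-like, mesothelial-like, myofibroblast-like and smooth muscle-like cells. At an unadjusted p under 0.05 the shares of all genes were 5.42%, 7.62%, 8.6%, 7.05% and 6.03%. DESeq2 was not run for these terms. A call in one class and none in another is therefore not shown to be a difference between them.

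Of the other genes of the fibre and its matrix, a list of 59 of which 58 were in the tables, 12 of 41 tested were called lower in alveolar fibroblast-like cells and 0 higher, where 1.54% of all genes were called lower. The other 29 did not pass, and DESeq2 called 7, where it called 1% of all genes. The count changed with how the class was drawn: it was 1 with the larger cluster alone, 2 at resolution 0.5, 1 at resolution 2 and 1 with the lists kept in the clustering. It was 4 with the sex covariate, and 4, 3 and 6 without Het1, Het2 and KO3. The 12 included Fbn1, the main fibrillin of microfibrils (511 and 473 against 307, 315 and 271 CPM, log2 fold change -0.73, standard error 0.14, edgeR adjusted p = 0.00492). Adamtsl2, a microfibril-bound ADAMTS-like protein, was at 91.5 and 148 against 48.1, 42.4 and 47.6 CPM (log2 fold change -1.33, standard error 0.22, edgeR adjusted p = 0.00201). Pcolce, an enhancer of procollagen processing, was at 193 and 237 against 99.2, 93.2 and 109 CPM (log2 fold change -1.07, standard error 0.16, edgeR adjusted p = 0.000675). Emilin1, a glycoprotein at the elastin and microfibril interface, had a log2 fold change of -0.66 and Fbln1 one of -0.73. The fibrillar collagen genes, of which Col1a1, Col1a2, Col3a1 and Col5a2 also served as markers of the mesenchymal lineage, were among them. Col1a1, Col1a2, Col3a1, Col5a1 and Col5a2 had log2 fold changes of -0.72, -0.63, -0.53, -0.56 and -0.63. The protease Mmp14 and its inhibitor Timp2 were at -0.68 and -0.69. None of these 12 had overlapping groups, where 16.3% of all genes tested had KO below Het without overlap. They were picked by their adjusted p in the same libraries, so this adds no separate support.

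In myofibroblast-like cells 6 of 43 listed genes were called lower and 1 higher, where 1.14% of all genes were called lower and 1.45% in either direction. DESeq2 called 5 of the listed genes and 0.709% of all genes. None passed with the sex covariate, without KO2, with no low-count filter or with at least 1 CPM in every library of a group, and 2 were lower without Het1 or without Het2. Ltbp1, a carrier of latent TGF-beta, was at 72.6 and 54.8 against 13.3, 27.5 and 31.1 CPM (log2 fold change -1.35, standard error 0.27, edgeR adjusted p = 0.0155). Adamtsl2 was at 147 and 168 against 80.8, 63.7 and 111 CPM (log2 fold change -0.85, standard error 0.19, edgeR adjusted p = 0.0287), and Timp3, a metalloproteinase inhibitor of the matrix, at 499 and 289 against 245, 139.9 and 214 CPM (log2 fold change -0.98, standard error 0.22, edgeR adjusted p = 0.0255). Itgav, an integrin subunit, Fbln1 and the proteoglycan gene Bgn had log2 fold changes of -0.76, -0.65 and -0.61. Versican, encoded by Vcan, was the 1 listed gene that rose, at 125 and 127 against 213, 257 and 200.0 CPM (log2 fold change 0.82, standard error 0.16, edgeR adjusted p = 0.0152). Cluster 0 had 1 of 45 called, where 0.551% of all genes were: Adamtsl2, at 52.1 and 51.6 against 22.2, 9.42 and 15.4 CPM (log2 fold change -1.69, standard error 0.31, edgeR adjusted p = 0.0145). None of the 45 passed there with the sex covariate, and none of those tested did with mixed cells left out or without Het1, Het2 or KO2.

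In the mesenchymal sum 0 of 55 listed genes passed in edgeR, with 16 at an unadjusted p under 0.05 and 2 by DESeq2. Of all 13795 genes 0.0652%, 12.8% and 0.971% did so, and the median log2 fold change of the listed genes was -0.21. None passed in adventitial fibroblast-like, smooth muscle-like and mesothelial-like cells and in cluster 8 either. At an unadjusted p under 0.05 there were 5 of 49, 13 of 46, 6 of 49 and 15 of 40, against 7.71%, 8.47%, 7.49% and 10.9% of all genes. DESeq2 called 1, 0, 0 and 0, against 0.26%, 0.18%, 0.109% and 0.541% of all genes. Fbn2, the fibrillin of fetal microfibrils, did not pass in the mesenchymal sum (336 and 419 against 339, 282 and 345 CPM, log2 fold change -0.23, standard error 0.13, edgeR adjusted p = 0.497). It rose in epithelial cells, from 99.5 ± 16.8 CPM (SD, n = 2) to 402 ± 8.11 CPM (SD, n = 3) (log2 fold change 2.01, standard error 0.12, edgeR adjusted p = 0.000391). Its red-cell barcodes had 25.3 and 29.9 against 66.0, 100.0 and 85.7 CPM. In endothelial cells Fbn2 was at 55.6 and 62.8 against 82.1, 97.8 and 99.8 CPM (log2 fold change 0.66, standard error 0.12, edgeR adjusted p = 0.018), above the red-cell barcodes of the same library in 4 of 5 libraries.

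Outside the mesenchyme 1 member passed. Ltbp4 in epithelial cells was at 50.2 (Het1), 62.3 (Het2), 107 (KO1), 71.8 (KO2) and 92.3 (KO3) CPM, higher in every KO-labelled library than in both Het ones (log2 fold change 0.68, standard error 0.17, edgeR adjusted p = 0.0413; background 9.37% of 15095 genes, or 3.44% in the higher direction). Its red-cell barcodes were at 35.3 and 42.7 against 58.0, 40.3 and 52.3 CPM, below the epithelial level of the same library in all 5. Of all genes tested in epithelial cells, 45.2% had groups that did not overlap, in either direction. The call held in 6 of 14 alternatives, with adjusted p from 0.000343 to 0.252, and it was lost with mixed cells left out (0.224), doublets kept (0.061), the sex covariate (0.113) or the replicate block (0.107), and without Het1, Het2, KO1 or KO3. In endothelial cells 0 of 10 passed in edgeR, with 2 at an unadjusted p under 0.05 and 0 by DESeq2, against 5.45%, 20.5% and 5.6% of 11853 genes. Endothelial Eln was at 733 (Het1), 2146 (Het2), 617 (KO1), 306 (KO2) and 648 (KO3) CPM, without overlap and with Het2 far above the others (log2 fold change -1.46, standard error 0.42, edgeR adjusted p = 0.0892). Of all genes tested in endothelial cells, 38.9% had groups that did not overlap, in either direction. In immune cells, where every member lay below the red-cell level, 0 of 10 passed in edgeR, with 1 at an unadjusted p under 0.05 and 0 by DESeq2, against 8.21%, 23.0% and 8.6% of 13769 genes.

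Over all kept cells of a library 0 of 10 members passed in edgeR, with 2 at an unadjusted p under 0.05 and 2 called by DESeq2. Of all 17743 genes 3.76%, 25.3% and 11.8% did so. Only 4 of 10 had a negative log2 fold change here, and the median was 0.21. Mesenchymal cells were 580 of 4634 kept cells (Het1), 592 of 4063 (Het2), 872 of 3051 (KO1), 590 of 3236 (KO2) and 856 of 3885 (KO3). Eln was at 880.2 (Het1), 948 (Het2), 823 (KO1), 518 (KO2) and 739 (KO3) CPM over all cells (log2 fold change -0.40, standard error 0.19, edgeR adjusted p = 0.245), and Mfap4, at 176 and 167 against 356, 219 and 265 CPM, was higher without overlap (log2 fold change 0.71, standard error 0.20, edgeR adjusted p = 0.101). Over all kept cells, 46.6% of all genes tested had groups that did not overlap, in either direction. The share of Eln and Mfap4 in the whole lung's transcripts thus mixes the level per mesenchymal cell with the number of such cells kept.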

How the data were processed

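The deposited values are UMI counts per gene and barcode in 5 tables of 32285 genes, made with Cell Ranger 4.0.0 on mm10 per the submitters' processing notes, from 10x 3′ libraries per the labels. The filter behind the deposited barcodes is not given in the sources used here. Kept barcodes had 500 or more genes and mitochondrial UMIs of 15% or less, and 78 to 186 barcodes per library with the highest doublet scores (0.8% per 1000 cells) were removed. Cells were clustered (scanpy 1.11.5, Leiden at resolution 1, 2000 variable genes, 30 principal components), and mesenchymal cells again on 20 components without the members and the list of fibre genes. A class took a name from at least 3 markers and 50% of its list. The details of this naming were set after the clusters were seen, so where the results differ from those of the study the rebuilt names can be the reason.

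Cells are not replicates, so the counts were summed per library and class (20 or more cells needed in each library) and compared by edgeR 4.0.16 quasi-likelihood tests (TMM scaling, filterByExpr, two-sided, Benjamini-Hochberg over all genes tested, threshold 0.05). CPM use TMM-scaled totals; in red-cell barcodes they use non-haemoglobin UMIs. Genotype by class terms used the library as a block over the 5 named classes tested. DESeq2 1.42.0, other filters and scalings, leaving out each library, a sex covariate and a replicate block were alternatives; the larger cluster of a class alone and the sum without cluster 12 were chosen after seeing the data. Named genes are all members, listed genes past the threshold in a mesenchymal fit, Fbn1, Fbn2, Zswim8 and the genes most like each member in pattern (1 each, 3 for Eln). The members and lists were chosen with earlier results of these data known. Coordinates are from GENCODE M21 (GRCm38), which holds 32158 of the IDs. Nothing states separate litters, so p-values measure the spread between these embryos only. In simulated data with 200 genes changed by 1 on the log2 scale, the fits recovered 66% in the mesenchymal sum, 38.5% in alveolar fibroblast-like cells, 37% in cluster 0 and 55.5% in myofibroblast-like cells, with 10, 2, 3 and 10 false calls among 13795, 8103, 7981 and 8318 genes.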

Additional observations from a re-analysis of the deposited data

Results flagged for a closer look

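Ltbp4 had log2 fold changes of opposite sign in 2 cell classes. In epithelial cells every KO-labelled library lay above both Het libraries, with a log2 fold change of 0.68, while in alveolar fibroblast-like cells every KO-labelled library lay below both, with -0.58. The values of Efemp2 also lay on opposite sides: its log2 fold change was 0.19 in epithelial cells and -0.38 in myofibroblast-like cells, without overlap of the groups in either, and neither passed the threshold (edgeR adjusted p of 0.297 and 0.446). In all 4 of these comparisons the level was above that of the red-cell barcodes in all 5 libraries. Groups that did not overlap, in either direction, are common among all genes tested. Their share was 45.2% in epithelial, 33.1% in alveolar fibroblast-like and 28.6% in myofibroblast-like cells. The difference between the classes was not tested for either gene. The call of Ltbp4 held in 6 of 14 alternatives in epithelial cells and in 8 of 18 in alveolar fibroblast-like cells. Over these alternatives its log2 fold change ran from 0.53 to 0.84 and from -0.74 to -0.09.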

How the results depend on the processing

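Counts of members called moved with the fit. In the mesenchymal sum, where 0 passed, DESeq2 gave 4, doublets kept 2, scaling by library size alone 2, no low-count filter 5 and mixed cells left out 5; leaving out each library gave 0 to 3 (1 without Het1, 3 without Het2). Over the 5 named classes tested, where 8 of 49 comparisons passed, the count was 4 at resolution 0.5, 4 at resolution 2, 4 with the lists kept in the clustering, 5 with the largest cluster alone, 17 with no low-count filter and 2 with the sex covariate; leaving out each library gave 4 to 11 (4 without Het1 or KO2, 5 without KO3). In the other lineages, where 1 passed, DESeq2 gave 2, doublets kept 0 and no filter 6, and leaving out each library 0 to 2 (0 without Het2 or KO1, 2 without KO2 or KO3). In the whole library DESeq2 gave 2, where it called 11.8% of all genes. In epithelial, endothelial and immune cells DESeq2 called 10.2%, 5.6% and 8.6% of all genes. With no low-count filter 2494 of 22083, 1526 of 18914 and 1316 of 20761 genes passed there in the same order. Counts over all genes moved too. In the mesenchymal sum 9 of 13795 genes passed, 134 with DESeq2 and 446 of 21263 with no low-count filter. With no such filter smooth muscle-like cells went from 9 of 9460 to 209 of 17331 genes. Mesothelial-like cells went from 0 of 10982 to 307 of 18103, and myofibroblast-like cells fell from 121 of 8318 to 25 of 16453. With the sex covariate alveolar fibroblast-like cells fell from 167 of 8103 to 61 genes. The fibre list in the mesenchymal sum went from 0 to 2 with DESeq2, 5 with mixed cells left out and 7 with no filter, and to 0 to 1 with each library left out (1 without Het2). The genotype by class terms went from 0 to 1 (Fbln5 in alveolar fibroblast-like cells) with at least 1 CPM in every library of a group and 9 with no filter, and to 0 to 1 with each library left out (1 without Het1).

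Replicate numbers were checked as pairs. The deviations of Het1 and KO1 from their group means correlated at -0.24 over genes, and those of Het2 and KO2 at -0.21. Het1 and Het2 deviate from their shared mean by equal and opposite amounts, so these values are not separate checks. They cannot decide whether the numbers pair the embryos. With a replicate block, 0 members passed in the mesenchymal sum, 9 in the named classes and 3 in the other lineages. The 3 were Ltbp2 in endothelial cells and Eln in epithelial and immune cells, where Eln lay below the red-cell level. Of all genes, 199 of 11853 endothelial, 958 of 15095 epithelial and 975 of 13769 immune ones passed with the block. In alveolar fibroblast-like and myofibroblast-like cells 191 of 8103 and 305 of 8318 did. In smooth muscle-like, adventitial fibroblast-like and mesothelial-like cells it was 35 of 9460, 16 of 9994 and 1 of 10982.

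The 12 called log2 fold changes of members kept their direction under every alternative run. Among uncalled ones in the mesenchymal sum, Lox went to 0.077 without cluster 12. Mfap4 went to -0.037 with mixed cells left out and -0.13 with equal weight of the classes, and ran from -0.15 to 0.32 with each library left out. Mfap5 went to 0.16 with the sex covariate and 0.028 without cluster 12, and ran from -0.18 to 0.14 with each library left out; the cause was not tested. Each member's highest named class was the same for 9 of 10 at resolution 0.5 (not Ltbp4) and 9 of 10 with mixed cells left out (not Loxl1), and for 10 of 10 in the other 3 alternatives run. Depth limits Fbln5 in KO-labelled alveolar fibroblast-like cells, at 29 to 62 UMIs, and pericyte-like cells and cluster 12, with as few as 8 and 14 cells in a library.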

Other observations

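Cluster 12, with 14 to 45 cells per library, had too few cells to test, and its levels are given as values. Mgp there was at 18283 and 19058 against 11479.7, 15002 and 11284 CPM in the order Het1 and Het2 against KO1, KO2 and KO3, and Ltbp2 at 493 and 678 against 251, 333 and 392 CPM, both without overlap. Loxl1 and Mfap5 were at 298 and 354 against 164, 144 and 171 CPM and 460.3 and 606 against 129.8, 169 and 255 CPM, also without overlap, and Fbln5, at 342 and 382 against 190.3, 129 and 366 CPM, overlapped. Cycling mesenchymal-like cells, likewise untested, had Eln at 6088 and 4804 against 4439, 2704 and 4058 CPM and Mgp at 4241 and 4025 against 2131, 2465 and 2508 CPM, without overlap in either. In pericyte-like cells, with 8 to 60 cells per library, Efemp2 was at 98.9 and 92.2 against 104, 137 and 128 CPM.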
